A study of Homo sapiens with 6 samples.

Results

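Collagens are the main structural proteins of the extracellular matrix, and the human genome encodes their chains in a large gene family. The chains described here were all rows of the deposited expression table whose gene name is COL, a number, the letter A and a number, except COL17A1, which was left out. There were 43 such chains among 58051 genes. They fall into 11 fibrillar chains, 8 basement membrane chains and 24 chains of other kinds. The cells were MDA-MB-231, a human cell line from a breast cancer, given as wild type in the labels. They were stained with fluorescein-tagged recombinant human FABP4, a carrier of fatty acids, and sorted by flow cytometry into cells that bound FABP4 and cells that did not, called binding and non-binding here, with 3 libraries from each of the 2 groups. All 6 libraries come from this 1 line, every cell had passed through the stain and the sort, and no unstained or unsorted group was used here. Expression is given as TPM, a length-corrected share of a library's transcripts that sums to 1000000 in each library. VIM, which encodes the vimentin that marks this mesenchymal-like line, was at 846, 965 and 981 TPM in binding libraries and 821, 835 and 834.9 TPM in non-binding libraries. Of 5 such markers VIM and ZEB1 did not pass, and AXL, CAV1 and CD44 were higher in binding cells (log2 change 0.98, 0.95 and 0.59). Of all tested genes 19.6% were higher and 7.12% lower by the test described below.

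Each collagen molecule is a helix wound from chains that may be alike or different. Fibrillar collagens, chiefly types I, III and V, pack into the banded fibres of connective tissue, while type IV collagen forms the sheet-like network of basement membranes on which epithelial cells rest. Smaller collagens decorate fibrils, anchor basement membranes or span the plasma membrane. Chains are hydroxylated and folded in the endoplasmic reticulum before secretion, and enzymes outside the cell then trim and crosslink them. Breast tumour cells meet both kinds of matrix, the basement membrane at the edge of the duct and the fibrillar stroma beyond it.

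The genes of type IV collagen lie in head-to-head pairs, and the COL4A1 and COL4A2 pair was among the chains that were higher in binding cells. The promoter windows of both are printed because they are largely the same stretch of DNA read from opposite strands. Each window runs from 250 bases before to 50 bases after the RefSeq start site (GRCh38.p14), at chr13:110307108-110307407 on the minus strand for COL4A1 and chr13:110307034-110307333 on the plus strand for COL4A2. Capitals mark the GC box (GGGCGG or its complement CCGCCC) and the CCAAT box (CCAAT or ATTGG), searched on both strands.
COL4A1: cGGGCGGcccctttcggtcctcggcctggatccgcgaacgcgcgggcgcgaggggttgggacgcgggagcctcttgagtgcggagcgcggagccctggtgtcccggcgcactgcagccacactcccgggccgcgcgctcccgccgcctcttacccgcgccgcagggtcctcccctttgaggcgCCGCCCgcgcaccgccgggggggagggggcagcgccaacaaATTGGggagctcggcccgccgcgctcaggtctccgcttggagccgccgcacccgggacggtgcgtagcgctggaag
COL4A2: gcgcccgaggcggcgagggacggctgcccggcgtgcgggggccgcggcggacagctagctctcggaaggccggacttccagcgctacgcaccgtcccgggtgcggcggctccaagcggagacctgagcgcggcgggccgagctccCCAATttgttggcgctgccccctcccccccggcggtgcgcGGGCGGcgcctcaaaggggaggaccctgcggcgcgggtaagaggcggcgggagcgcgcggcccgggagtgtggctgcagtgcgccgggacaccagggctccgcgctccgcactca
The start sites of this pair are 127 bases apart and the windows share 226 bases, so a GC box and the CCAAT box stand in both. The windows hold 2 and 1 GC boxes, for COL4A1 and COL4A2 in that order, and 1 CCAAT box each. Of 34943 promoter windows of this length, 44.9% hold a GC box and 34.6% a CCAAT box. Neither window holds TATAAA or the AP-1 motif TGANTCA, which stand in 11.6% and 7.7% of all windows. The other type IV pairs have start sites 419 bases apart (COL4A3 and COL4A4, chromosome 2) and 380 bases apart (COL4A5 and COL4A6, chromosome X).

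Collagen transcripts were present at moderate levels. The 43 chains together summed to 489, 428 and 507 TPM in binding libraries and 340.3, 251 and 335 TPM in non-binding libraries, 1.54 times higher in the binding mean. Of the 43 chains, 19 reached 1 TPM in at least 3 libraries and were tested with limma on log2(TPM + 1), with Benjamini-Hochberg adjustment over all 15574 genes that passed the same filter. At an adjusted p of 0.05, 5 chains were higher in binding cells, COL4A1, COL4A2, COL18A1, COL5A1 and COL13A1. None was lower (0 also at an unadjusted p under 0.05 by limma, against 1821 of 15574 genes). At the adjusted p, 19.6% of all tested genes were higher and 7.12% lower, so the share of 5 in 19 chains lies near that of genes in general. All 5 were among the 11 chains with a mean of at least 5 TPM, and of all genes at that level 26.4% were higher and 9.76% lower. The 2 groups did not overlap for 8 of the 19 chains, against 52.2% of all tested genes.

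The 19 chains had a median log2 change of 0.09, and all tested genes one of 0.36. With all libraries moved to 1 shared median, called the common median here, the chains had a median of -0.23 and all genes 0.04, and with quantile normalization the chains had -0.14 and all genes 0.11. The same 5 chains passed under both scalings and no chain was lower by adjusted p, where 6.18% and 7.69% of all genes were higher and 12.1% and 8% lower. At an unadjusted p under 0.05, COL16A1 and COL6A3 were lower under both (log2 change -0.92 and -0.69 with the common median, limma). Of all 15574 genes, 3212 and 2696 were lower at that level with the common median and quantile normalization. The 5 higher chains also passed with TPM rescaled without mitochondrial transcripts (28.4% of all genes higher), a pseudocount of 0.1 (18.9%), no filter (5.12%) and a filter at 0.1 TPM (11.9%). The same held with 1 TPM required in all libraries (29.7%), no intensity trend (12.8%) and a block for the replicate number (20.4%). All 5 passed without binding replicate 1, 2 or 3 and without non-binding replicate 1, where 12.7%, 12.6%, 9.98% and 9.16% of all genes were higher. Without non-binding replicate 2 only COL13A1 and COL5A1 passed (1.8% of all genes higher), and without non-binding replicate 3 none did (0.372%). In that last fit 8 of 19 chains were higher at an unadjusted p under 0.05 (limma), against 4198 of 15574 genes. Changes are therefore also given relative to the median of all genes. The labels do not say whether the 3 libraries of a group are separate cultures or sorts, so p-values reflect no more than the scatter of these libraries, part or all of which may be technical. In bulk RNA, a lower share of cells of one type and less RNA per cell cannot be told apart.

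**Figure D1:**
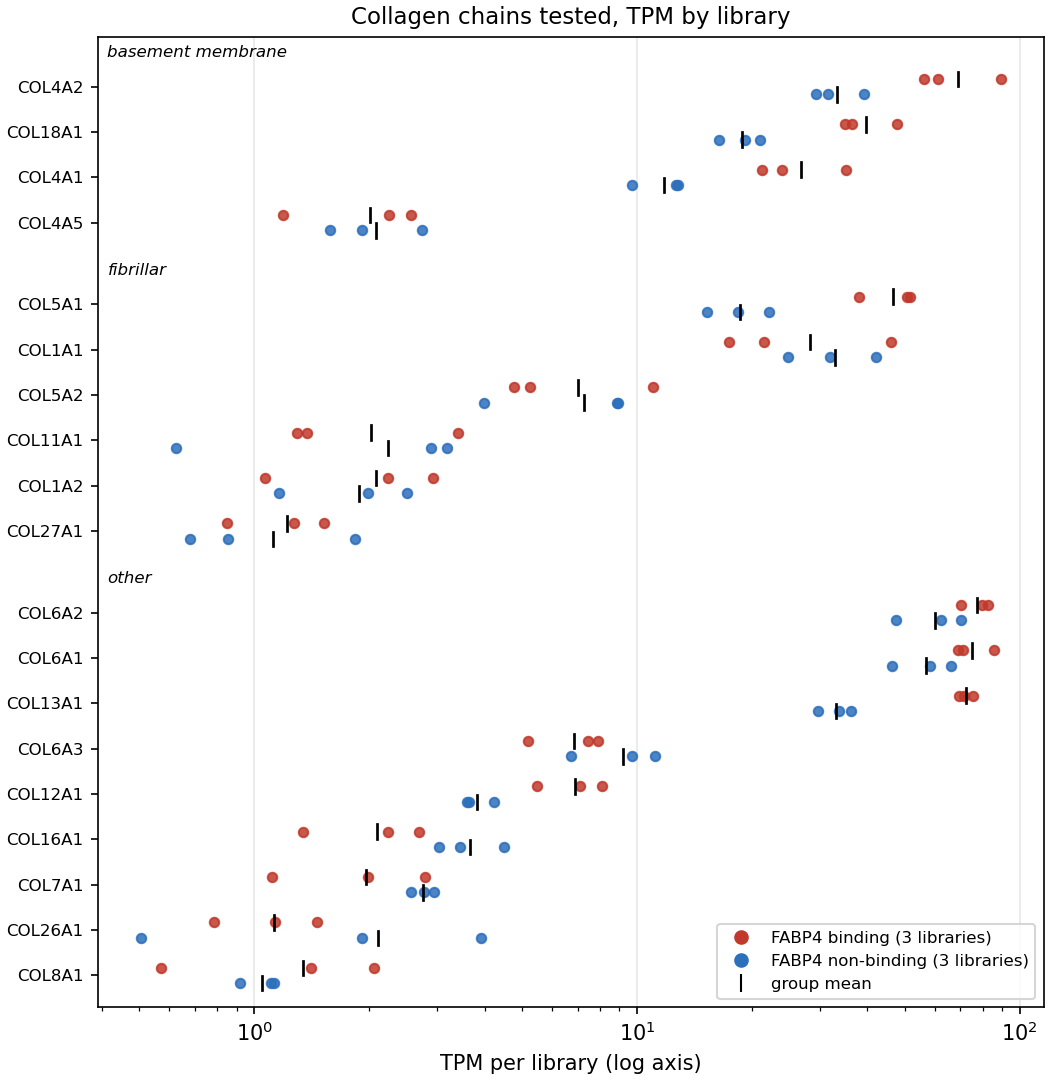
TPM of the 19 tested collagen chains on a log axis, grouped by class, with 1 point per library and a bar at each group mean (3 libraries per group). Binding libraries lie above all non-binding libraries for COL4A1, COL4A2, COL18A1, COL5A1, COL13A1, COL12A1 and COL6A1, and below them for COL16A1.

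Among the basement membrane chains, COL4A1 and COL4A2, the pair with overlapping promoter windows, and COL18A1 were each higher by a log2 change of 1.00 to 1.10, while the remaining tested chain, COL4A5, was not. COL4A1 and COL4A2 encode the chains of the type IV network found in nearly all basement membranes. COL4A2 (ENSG00000134871, chromosome 13, 110305812 to 110513209, hg38) was at 89.2, 56.2 and 61.0 TPM in binding libraries and 39.1, 29.4 and 31.5 TPM in non-binding libraries. COL4A1 (ENSG00000187498, chromosome 13, 110148963 to 110307233) was at 35.3, 21.2 and 24.0 TPM in binding libraries and 12.7, 9.71 and 12.8 TPM in non-binding libraries. The groups did not overlap for either gene, and binding replicate 1 was the highest of the 6 for both. The log2 change was 1.00 for COL4A2 (SE 0.21; adjusted p = 0.0191 by limma with Benjamini-Hochberg) and 1.10 for COL4A1 (SE 0.23; adjusted p = 0.0188), or 0.65 and 0.75 relative to all genes.

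COL18A1 encodes a collagen of basement membrane zones that carries heparan sulphate chains and whose end can be cut off as endostatin. It lies on chromosome 21 (45405137 to 45513720) and was at 47.9, 34.9 and 36.4 TPM in binding libraries and 21.0, 16.4 and 19.2 TPM in non-binding libraries. Its groups did not overlap, and the log2 change was 1.03, and 0.67 after subtracting the median of all genes (SE 0.18; adjusted p = 0.0143 by limma with Benjamini-Hochberg). It shares 1401 exonic bases with SLC19A1 on the opposite strand, whose highest value was 1.199 TPM, and whether the counting used strand is not given in the sources used here. The related chain COL15A1 stayed under 1 TPM in every library and was not tested.

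COL4A5, a chain best known from the kidney filter, had a mean of 2.00 ± 0.720 TPM in the binding group, against 2.08 ± 0.597 TPM in the non-binding group (n = 3 each, ± SD; adjusted p = 0.909 by limma with Benjamini-Hochberg). Its log2 change was -0.05 with a 95% confidence interval of -0.77 to 0.67. Its gene partner COL4A6 had a mean of 0.0591 TPM in the binding group, against 0.187 TPM in the non-binding group, and COL4A3 and COL4A4 averaged under 0.1 TPM in both groups, so these chains were not tested.

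Of the 6 tested fibrillar chains COL5A1 was higher and the other 5 did not pass, and no test was made between chains. COL5A1 encodes the main chain of type V collagen, a minor fibrillar collagen that starts and limits the growth of type I fibrils. It lies on chromosome 9 (ENSG00000130635, 134641774 to 134844843) and was at 50.7, 38.02 and 51.6 TPM in binding libraries and 22.1, 15.2 and 18.4 TPM in non-binding libraries. Every binding value exceeded every non-binding value. The log2 change was 1.29, the highest of the 19 chains, or 0.93 relative to all genes (SE 0.19; adjusted p = 0.0124 by limma with Benjamini-Hochberg).

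COL1A1, the main chain of type I collagen, was at 17.4, 21.4 and 46.0 TPM in binding libraries and 42.2, 24.8 and 32.0 TPM in non-binding libraries. The groups overlapped widely, with the highest and the lowest value both among binding libraries. Its log2 change of -0.31 had an interval of -1.116 to 0.50 (adjusted p = 0.516 by limma with Benjamini-Hochberg), so the interval covers changes in both directions. COL1A2, its partner in type I collagen, had a mean of 2.08 ± 0.946 TPM in the binding group, against 1.88 ± 0.678 TPM in the non-binding group (n = 3 each, ± SD).

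COL5A2, which joins COL5A1 in type V collagen, was at 4.78, 5.25 and 11.01 TPM in binding libraries and 8.93, 3.98 and 8.88 TPM in non-binding libraries. The 2 groups covered much the same range, and the log2 change was -0.06 (SE 0.38; adjusted p = 0.913 by limma with Benjamini-Hochberg), which turned to 0.04 with TPM rescaled without mitochondrial transcripts. COL11A1, a fibrillar chain of cartilage, had a mean of 2.03 ± 1.19 TPM in the binding group, against 2.24 ± 1.41 TPM in the non-binding group, and COL27A1, a cartilage chain too, averaged 1.22 ± 0.340 and 1.122 ± 0.620 TPM in binding and non-binding libraries (n = 3 each, ± SD). COL3A1, a major chain of soft connective tissue, had a mean of 0.655 ± 0.205 TPM in the binding group, against 0.795 ± 0.765 TPM in the non-binding group and was not tested.

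Markers of fibroblasts, the main makers of fibrillar collagen in tissue, were at low levels, and their sum had the same order of libraries within each group as COL1A1. The 10 markers summed to 14.5, 20.6 and 22.4 TPM in binding libraries and 32.3, 16.3 and 23.5 TPM in non-binding libraries. Of the 10, 1 was higher in binding cells, PDGFRB, none was lower, 7 did not pass and 2 were not tested. Of all tested genes 19.6% were higher and 7.12% lower. TCF21 was listed at 0 in every library and FAP did not pass 0.342 TPM in any. DCN and LUM, which encode proteoglycans that bind collagen fibrils, were lowest in binding replicate 1 and non-binding replicate 2 within their groups. PDGFRA, THY1 and COL1A1 were too, but the other tested markers, PDGFRB, ACTA2, PDPN and C1S, were not lowest in both. Non-binding replicate 2 was the lowest of its group for 43.4% of all tested genes. The part of fibroblast transcripts in the fibrillar values was not tested.

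**Figure D2:**
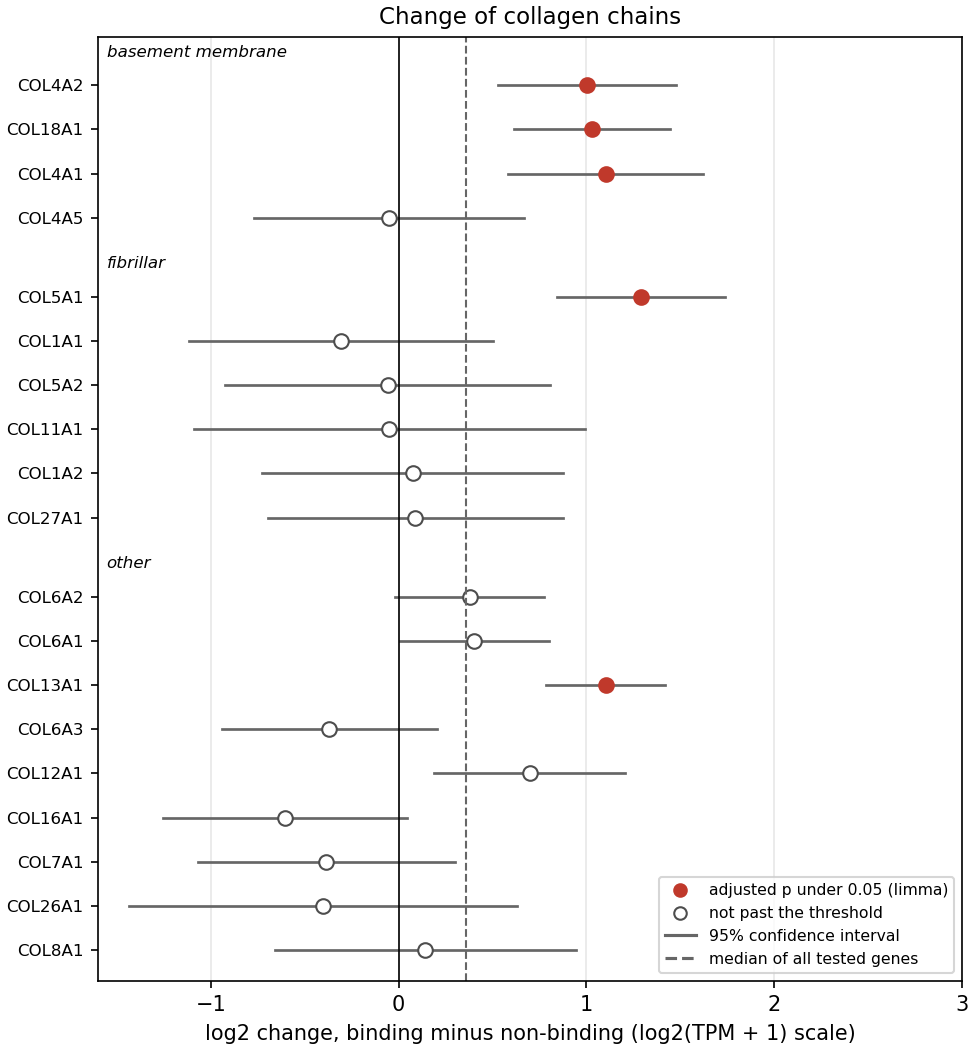
Log2 change of the 19 tested chains, binding minus non-binding, on the log2(TPM + 1) scale with 95% confidence intervals; filled points passed an adjusted p of 0.05 and the dashed line is the median of all tested genes, 0.36. For all 5 filled points the interval lies above that line.

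Type VI collagen forms beaded microfibrils close to the cell surface, and its COL6A1 and COL6A2 chains had the highest collagen means over the 6 libraries. In binding replicate 1, COL4A2 and COL13A1 were above both. COL6A1 was at 68.8, 71.3 and 85.6 TPM in binding libraries and 58.3, 46.3 and 66.3 TPM in non-binding libraries. The groups just missed each other, but the chain did not pass (log2 change 0.40, SE 0.17; adjusted p = 0.107 by limma with Benjamini-Hochberg). COL6A2 was at 70.1, 79.8 and 82.5 TPM in binding libraries and 62.3, 47.5 and 70.1 TPM in non-binding libraries, with a log2 change of 0.38 (adjusted p = 0.125 by limma with Benjamini-Hochberg). Relative to all genes these changes were 0.05 and 0.02. COL6A3, the longest chain of the same molecule, was at 5.18, 7.465 and 7.91 TPM in binding libraries and 9.69, 6.73 and 11.2 TPM in non-binding libraries. Its mean was 6.85 ± 1.46 TPM in the binding group, against 9.19 ± 2.25 TPM in the non-binding group (n = 3 each, ± SD). It did not pass (adjusted p = 0.275 by limma with Benjamini-Hochberg). Of the other type VI chains, COL6A5 was listed at 0 throughout and COL6A6 did not exceed 0.0592 TPM.

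COL13A1 encodes a collagen that spans the plasma membrane and sits at sites of cell adhesion and at the nerve-muscle junction. It lies on chromosome 10 (ENSG00000197467, 69801867 to 69964275) and was at 75.6, 69.6 and 71.5 TPM in binding libraries and 36.2, 29.7 and 33.7 TPM in non-binding libraries. Both groups were tight and far apart, and COL13A1 had the smallest p of all tested chains (log2 change 1.10, or 0.74 relative to all genes, SE 0.14; adjusted p = 0.00905 by limma with Benjamini-Hochberg). The other transmembrane chains in the set, COL23A1 and COL25A1, stayed under 1 TPM in every library and were not tested.

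COL12A1, a fibril-associated collagen, was at 8.11, 5.49 and 7.10 TPM in binding libraries and 3.65, 3.60 and 4.24 TPM in non-binding libraries. The groups did not overlap, yet the chain narrowly missed the threshold (log2 change 0.70, SE 0.22; adjusted p = 0.0501 by limma with Benjamini-Hochberg). It passed in 4 of the other fits, given under the dependence on processing. COL16A1, another fibril-associated chain, was at 1.34, 2.70 and 2.23 TPM in binding libraries and 4.48, 3.45 and 3.05 TPM in non-binding libraries. This was the one tested chain with all binding libraries below all non-binding libraries, and it did not pass (log2 change -0.61, SE 0.28; adjusted p = 0.131 by limma with Benjamini-Hochberg).

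COL7A1, the chain of the fibrils that anchor the epidermis to the dermis, had a mean of 1.97 ± 0.840 TPM in the binding group, against 2.77 ± 0.192 TPM in the non-binding group (n = 3 each, ± SD; adjusted p = 0.338 by limma with Benjamini-Hochberg). Keratinocytes make this chain in skin, and transcripts of keratinocyte markers were plentiful and unequal between the groups. The 9 markers summed to 1254, 2312 and 1921 TPM in binding libraries and 3777, 4291 and 2991 TPM in non-binding libraries. Of these markers 6 were lower in binding cells, none was higher and 3 did not pass, against 7.12% lower and 19.6% higher of all tested genes. The part of keratinocyte transcripts in the collagen values was not tested. Endothelial markers summed to at most 6.61 TPM in any binding library and 7.40 TPM in any non-binding library, and the 1 of 6 that was tested, CLDN5, did not pass. CDH5, TEK and VWF stayed under 1 TPM in all libraries, while CLDN5 reached 4.63 TPM, PECAM1 2.08 TPM and KDR 1.13 TPM. The 7 leukocyte markers summed to 21.0 to 37.7 TPM in binding and 24.5 to 33.6 TPM in non-binding libraries. For the 6 adipocyte markers the sums were 10.8 to 15.7 and 7.95 to 19.5 TPM. None of the 4 leukocyte and 2 adipocyte markers tested passed. The part of such transcripts in the collagen values was not tested.

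The remaining tested chains were COL26A1, with a mean of 1.13 ± 0.336 TPM in the binding and 2.11 ± 1.71 TPM in the non-binding group, and COL8A1, a chain of vessel walls and the cornea, at 1.34 ± 0.746 and 1.05 ± 0.114 TPM in binding and non-binding libraries (n = 3 each, ± SD). Neither passed (adjusted p = 0.506 and 0.765 by limma with Benjamini-Hochberg). Of the 24 chains that were not tested, COL10A1, COL28A1 and COL6A5 were listed at 0 in every library. The other 21 averaged between 0.0117 and 0.990 TPM over the 6 libraries. Of these 4 reached 1 TPM in some library, namely COL9A2, COL9A3, COL3A1 and COL8A2. COL9A2, a cartilage chain just outside the filter, was at 1.79, 0.574 and 0.693 TPM in binding libraries and 0.770, 0.833 and 1.28 TPM in non-binding libraries. COL27A1, just inside it, was at 1.53, 0.852 and 1.27 TPM in binding libraries and 0.857, 0.680 and 1.83 TPM in non-binding libraries. Chains typical of cartilage or bone growth plate ranged from 0 for COL10A1 to a mean of 2.13 TPM over the 6 libraries for COL11A1. Between them, COL9A1, COL2A1 and COL11A2 averaged 0.0136, 0.120 and 0.355 TPM. COL9A3, COL9A2 and COL27A1 averaged 0.828, 0.990 and 1.17 TPM. Of 4 cartilage markers ACAN and CNMD were listed at 0 in every library, MATN3 had means of 3.49 and 2.55 TPM in binding and non-binding libraries without passing, and SOX9 was higher, at 31.3, 40.4 and 36.2 TPM in binding libraries and 25.4, 19.5 and 21.3 TPM in non-binding libraries (adjusted p = 0.0277 by limma with Benjamini-Hochberg). The part of cartilage-like transcripts in the collagen values was not tested.

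Of the 3 classes, basement membrane transcripts had the highest ratio of summed TPM between the groups. The 8 basement membrane chains summed to 174, 115 and 125 TPM in binding libraries and 75.8, 57.7 and 66.1 TPM in non-binding libraries, 2.07 times higher in the binding mean. The 11 fibrillar chains summed to 78.1, 70.1 and 118 TPM in binding libraries and 81.2, 47.2 and 69.5 TPM in non-binding libraries, a ratio of 1.34 with overlapping groups. The 24 other chains summed to 236, 242 and 265 TPM in binding libraries and 183, 146 and 199.6 TPM in non-binding libraries, a ratio of 1.41. Within these, the ratio was 2.13 for the 3 transmembrane chains, mostly COL13A1, and 1.27 for the 5 type VI chains. Of all collagen TPM, basement membrane chains held 35.6%, 27.0% and 24.5% in binding libraries and 22.3%, 23.0% and 19.7% in non-binding libraries. The fibrillar share was 15.98%, 16.4% and 23.2% in binding libraries and 23.9%, 18.8% and 20.7% in non-binding libraries. By chain, 3 of 4 tested basement membrane chains were higher, 1 of 6 fibrillar and 1 of 9 others, against 19.6% of all tested genes. The median log2 changes were 1.02, 0.01 and 0.14, against 0.36 over all tested genes. These sums and counts are descriptions, and no test was made between the classes.

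**Figure D3:**
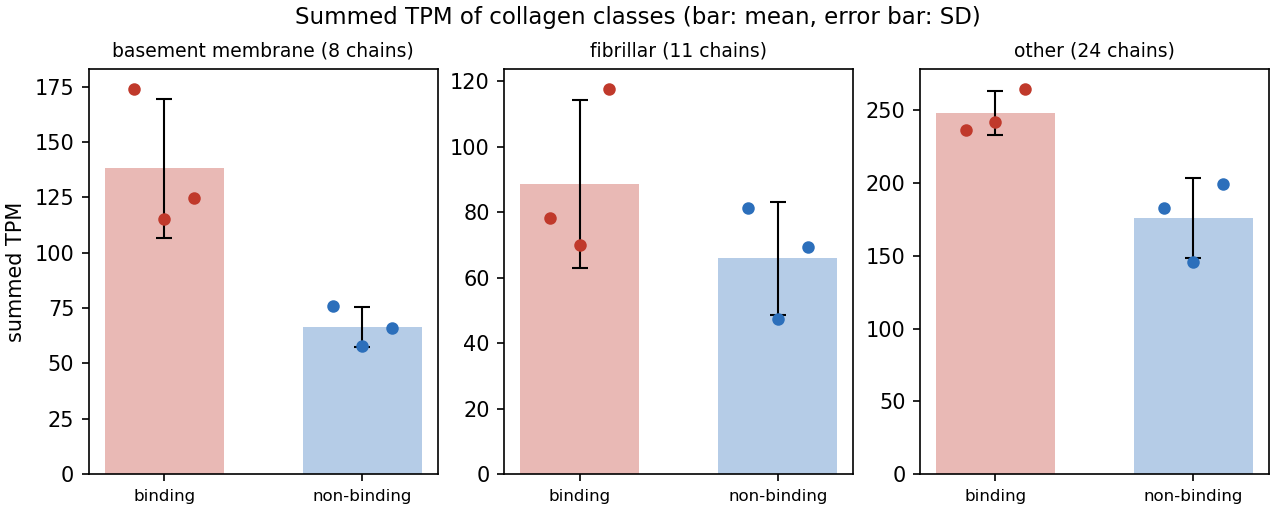
Summed TPM of the 3 collagen classes, each on its own axis from 0; bars are means, error bars SD and points the 3 libraries of each group. Binding libraries lie above all non-binding libraries for the basement membrane and other classes, and overlap them for the fibrillar class.

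TPM is corrected for length, so levels of partner chains can be set against each other within a library. The COL4A2 to COL4A1 ratio was 2.53, 2.65 and 2.55 in binding libraries and 3.08, 3.03 and 2.46 in non-binding libraries. The ratio of COL6A1 to COL6A2 was 0.982, 0.893 and 1.04 in binding libraries and 0.936, 0.974 and 0.944 in non-binding libraries. Both ratios overlapped between the groups.

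The ratio of COL5A1 to COL5A2 was 10.6, 7.25 and 4.69 in binding libraries and 2.47, 3.82 and 2.07 in non-binding libraries, without overlap. COL6A1 to COL6A3 stood at 13.3, 9.54 and 10.8 in binding libraries and 6.02, 6.87 and 5.94 in non-binding libraries, also without overlap. COL1A1 exceeded COL1A2 by 16.3, 9.55 and 15.7 times in binding libraries and 16.8, 21.4 and 16.2 times in non-binding libraries, with overlap. An exact two-sided permutation test gave p = 0.1 for COL5A1 to COL5A2 and for COL6A1 to COL6A3, the smallest that 3 against 3 allows (adjusted p = 0.25 over 5 ratios). The same exact test gave p = 0.2 for COL1A1 to COL1A2, 0.4 for COL4A2 to COL4A1 and 0.7 for COL6A1 to COL6A2. These pairs were chosen after the values were seen.

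**Figure D4:**
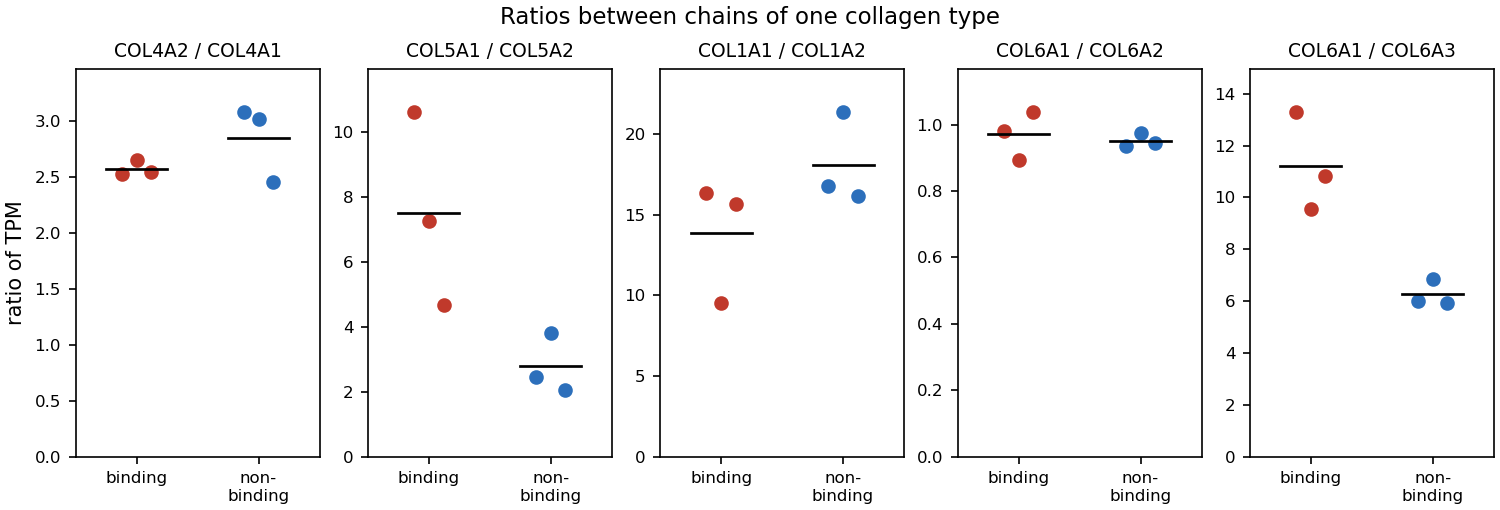
Ratio of TPM between chains of one collagen type in each library, 3 points per group with a bar at the mean, each panel on its own axis from 0. The groups are apart for COL5A1 over COL5A2 and COL6A1 over COL6A3, and overlap for the other ratios.

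Genes that fold, modify, export and crosslink collagen were often higher in binding cells. Of 43 such genes 35 were tested and 23 were higher (65.7%, against 19.6% of all tested genes). None was lower and 12 did not pass (limma, Benjamini-Hochberg). At an unadjusted p under 0.05 (limma) 0 of the 35 were lower, against 1821 of 15574 genes. The median log2 change of the 35 was 0.75, against 0.36 over all tested genes. With the common median 14 were higher, against 6.18% of all genes, and with quantile normalization 15, against 7.69%. Without non-binding replicate 3 the count was 2, against 0.372% of all genes, and without non-binding replicate 2 it was 4, against 1.8%.

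LOXL2, a lysyl oxidase-like enzyme that crosslinks collagens including type IV, was at 295, 252 and 251 TPM in binding libraries and 91.7, 102 and 83.1 TPM in non-binding libraries. This was the largest change of the list, with a log2 change of 1.52 (SE 0.14; adjusted p = 0.00251 by limma with Benjamini-Hochberg). PXDN, the peroxidase that forms the sulfilimine crosslinks of type IV collagen, was at 128, 106 and 109 TPM in binding libraries and 45.2, 47.6 and 47.8 TPM in non-binding libraries. LOX, the lysyl oxidase of fibrillar collagen, was at 40.8, 41.2 and 38.5 TPM in binding libraries and 16.1, 18.3 and 15.3 TPM in non-binding libraries. For LOXL2, PXDN and LOX every binding value exceeded every non-binding value, with log2 changes of 1.26 for PXDN and 1.23 for LOX. LOXL1 and LOXL4 were higher too (log2 change 1.36 and 1.25), and LOXL3 had a mean of 1.92 TPM in the binding group, against 1.55 TPM in the non-binding group without passing.

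Among the folding and hydroxylation genes, CRTAP, a member of the prolyl 3-hydroxylation complex, had a mean of 101 ± 10.6 TPM in the binding group, against 53.5 ± 4.33 TPM in the non-binding group (n = 3 each, ± SD), a log2 change of 0.90 (SE 0.14; adjusted p = 0.0125 by limma with Benjamini-Hochberg). SERPINH1, the collagen chaperone HSP47, was at 136, 90.4 and 95.7 TPM in binding libraries and 61.1, 47.7 and 66.3 TPM in non-binding libraries, a log2 change of 0.86. PLOD2, which hydroxylates lysines in the tail ends of collagen, changed by 0.86 and P4HA2, a prolyl 4-hydroxylase subunit, by 0.84 on the log2 scale. Its sister subunit P4HA1 was at 131, 102 and 114 TPM in binding libraries and 106, 138 and 90.5 TPM in non-binding libraries. The groups overlapped for P4HA1, and it did not pass (log2 change 0.06; adjusted p = 0.799 by limma with Benjamini-Hochberg). All 3 lysyl hydroxylases, PLOD1, PLOD2 and PLOD3, and all 4 members of the P3H family in the list were higher.

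**Figure D5:**
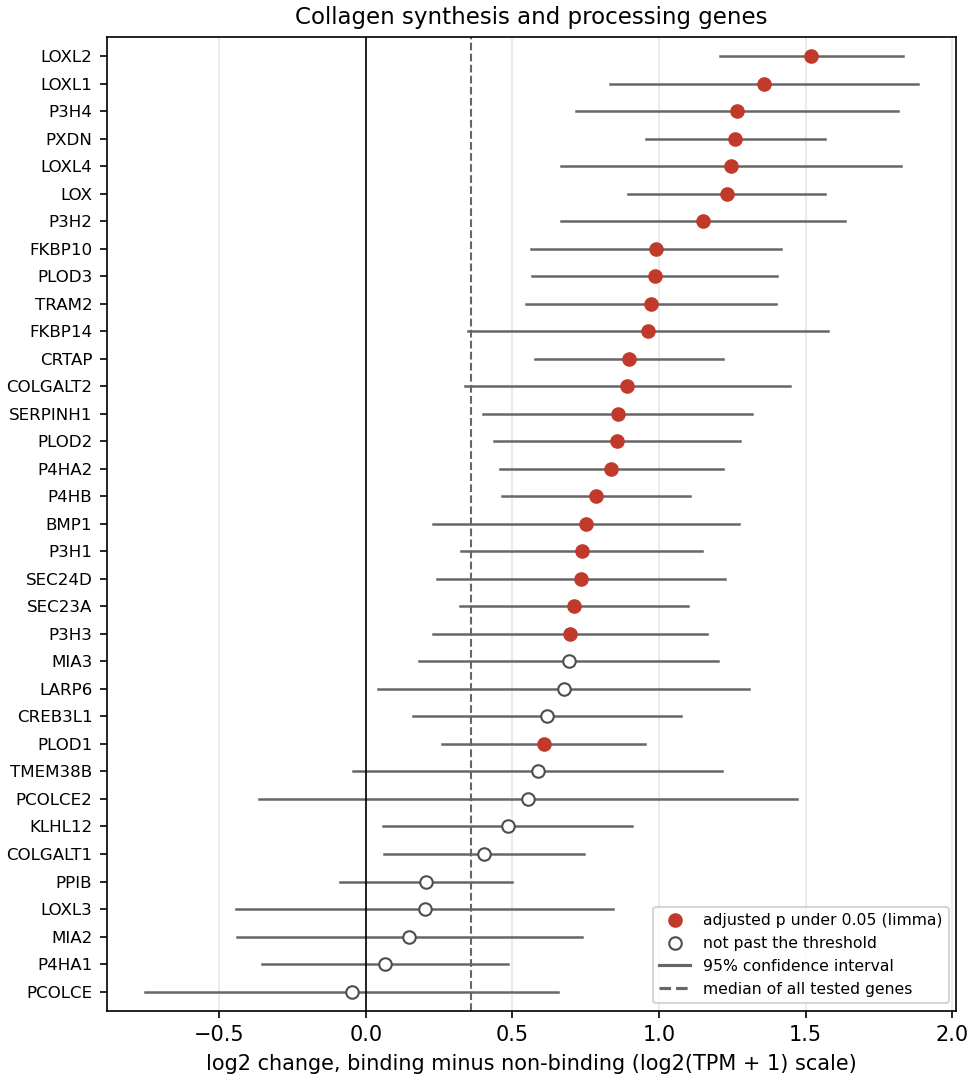
Log2 change of the 35 tested genes of collagen synthesis and processing, binding minus non-binding, with 95% confidence intervals; filled points passed an adjusted p of 0.05 and the dashed line is the median of all tested genes, 0.36. LOXL2 is at the top with 1.52 and PCOLCE at the bottom with -0.05.

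Of 12 collagen receptor genes 7 were tested, and 3 were higher, MRC2, ITGB1 and ITGA2, with none lower (limma, Benjamini-Hochberg). Of all tested genes 19.6% were higher and 7.12% lower. At an unadjusted p under 0.05 (limma) 0 receptor genes were lower, against 1821 of 15574 genes. MRC2, a receptor that takes up collagen fragments, was at 51.1, 41.1 and 52.2 TPM in binding libraries and 21.8, 17.6 and 23.5 TPM in non-binding libraries, a log2 change of 1.16 (SE 0.17; adjusted p = 0.0121 by limma with Benjamini-Hochberg). ITGB1 and ITGA2, which together make the collagen-binding integrin of epithelial cells, changed by 0.81 and 0.57 on the log2 scale (adjusted p = 0.0136 and 0.0461 by limma with Benjamini-Hochberg). ITGA2 lost its call with the common median (log2 change 0.25, adjusted p = 0.289), quantile normalization, no filter, the filter at 0.1 TPM, no intensity trend, the replicate block and each library left out, and over all alternatives its adjusted p ranged from 0.0236 to 0.289 by limma with Benjamini-Hochberg. ITGB1 lost it without non-binding replicate 2 or 3, and MRC2 without non-binding replicate 3. The collagen-activated kinase genes DDR1 and DDR2 averaged 11.8 and 1.37 TPM in the binding group, against 9.47 and 1.74 TPM in the non-binding group, and neither passed (adjusted p = 0.319 and 0.636 by limma with Benjamini-Hochberg).

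Genes of other basement membrane and fibrillar matrix proteins were set beside the chains. Of 17 tested basement membrane genes 8 were higher and none lower, against 19.6% and 7.12% of all tested genes, with a median log2 change of 0.66, against 0.36 for all. At an unadjusted p under 0.05 (limma) 0 were lower, against 1821 of 15574 genes. Under the common median, and likewise under quantile normalization, 2 were lower at that level, against 3212 and 2696 genes. By adjusted p, 5 were higher under each of these scalings, against 6.18% and 7.69% of all genes. LAMA5, a laminin chain, was at 91.7, 84.5 and 89.5 TPM in binding libraries and 29.7, 32.7 and 31.7 TPM in non-binding libraries, a log2 change of 1.47 (SE 0.13; adjusted p = 0.00234 by limma with Benjamini-Hochberg). AGRN, LAMB2 and LAMC1, which encode a heparan sulphate proteoglycan and laminin chains, changed by 1.09, 1.15 and 1.01. NID1 and NID2, the nidogens that tie laminin to type IV collagen, averaged 2.897 and 1.72 TPM in the binding group, against 3.33 and 4.47 TPM in the non-binding group and did not pass (adjusted p = 0.782 and 0.179 by limma with Benjamini-Hochberg).

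Of 19 tested genes of fibrillar matrix 4 were higher, TGFBI, THBS1, FN1 and FBN1, and none lower (limma, Benjamini-Hochberg), with a median log2 change of -0.0031, against 0.36 for all tested genes. The share of 4 in 19 is 21.1%, near the 19.6% of all tested genes that were higher. The count stayed at 4 under the common median and quantile normalization, where 6.18% and 7.69% of all genes were higher. At an unadjusted p under 0.05 (limma) 0 of the 19 were lower without these scalings, but 2 under the common median and 1 under quantile normalization. Of all 15574 genes 1821, 3212 and 2696 were lower in these fits, in that order. TGFBI, a matrix protein induced by TGF-beta, had means of 137 ± 22.9 TPM in the binding group, against 59.7 ± 2.99 TPM in the non-binding group, and THBS1, which encodes thrombospondin 1, 71.0 ± 14.0 and 31.7 ± 4.13 TPM in binding and non-binding libraries (n = 3 each, ± SD). FBN1, the fibrillin of elastic microfibrils, had means of 9.23 ± 1.27 TPM in the binding group, against 4.19 ± 0.188 TPM in the non-binding group. FN1, which encodes fibronectin, was at 54.1, 55.3 and 57.3 TPM in binding libraries and 27.2, 26.8 and 35.2 TPM in non-binding libraries, a log2 change of 0.89 (SE 0.15; adjusted p = 0.0141 by limma with Benjamini-Hochberg). Of the small proteoglycans of collagen fibrils, DCN, LUM, BGN and FMOD did not pass and ASPN was not tested. DCN had a mean of 3.69 TPM in the binding group, against 4.58 TPM in the non-binding group. LUM averaged 2.28 and 3.71 TPM and BGN 4.68 and 6.40 TPM in binding and non-binding libraries. FMOD went the other way, with means of 7.07 and 4.69 TPM in binding and non-binding libraries (log2 change 0.48). The difference between the lists was not tested. Without non-binding replicate 3 the basement membrane count was 1, and the receptor and fibrillar matrix counts were 0, where 0.372% of all tested genes were higher. At an unadjusted p under 0.05 (limma) 8 of 17, 3 of 7 and 4 of 19 genes of these lists were higher in that fit, against 4198 of 15574 genes.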

How the data were processed

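Total RNA was ribosome-depleted, fragmented and randomly primed, per the labels' protocols. The deposited table holds TPM, as its column sums show; hg38 is named in the submitters' processing notes. Aligner, quantifier, annotation and strand setting were not given in the sources used here. Depth cannot be recovered from TPM, so counting intervals and count models were not used. Per library, 15300 to 15945 genes reached 1 TPM. Mitochondrial genome transcripts held 9.99% to 11.2% of TPM in binding and 2.98% to 3.38% in non-binding libraries. This lowers all other values, and more so in the binding libraries.

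limma 3.58.1 (R 4.3.3) was run on log2(TPM + 1) for the 15574 genes that reached 1 TPM in 3 or more of 6 libraries. The fit had the group as its one term and a trend of the variance with intensity, and p-values were adjusted by Benjamini-Hochberg over those genes. The pseudocount of 1 understates the change of low genes. Leaving out a library kept the same genes. The fits were tested on simulated data. Gene spans come from GENCODE release 29 and promoter sequences from RefSeq (GRCh38.p14), which had 31 of 43 chains. MIA2 was matched by its gene identifier. Members, classes and gene lists were chosen with earlier results of these data known. Chains with a mean of at least 5 TPM or past the threshold are given by library; of each list, at most 4 genes with the smallest p and 10 genes chosen by role were to be named, and others named were chosen after their values were seen. COL17A1 was left out by the rule for members.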

Additional observations from a re-analysis of the deposited data

How the results depend on the processing

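The 5 chains that were higher kept that call with the common median, after quantile normalization, with TPM rescaled without mitochondrial transcripts, a pseudocount of 0.1, no filter, either other filter, no intensity trend and the replicate block, where log2 changes ranged from 0.69 to 1.40. With single libraries left out, the count of higher chains ranged from 0 to 5 and that of lower chains was 0. The count of higher chains was 0 without non-binding replicate 3, where the 5 chains changed by 0.97 to 1.29 (adjusted p = 0.0517 to 0.0631 by limma with Benjamini-Hochberg). At an unadjusted p under 0.05 (limma) 8 chains were higher in that fit, against 4198 of 15574 genes. The count by adjusted p was 2, COL13A1 and COL5A1, without non-binding replicate 2. COL12A1 passed without mitochondrial transcripts, with a pseudocount of 0.1, with 1 TPM required in all libraries and without an intensity trend. COL5A2 changed sign without mitochondrial transcripts (0.041) and in 4 of 6 fits without 1 library (range -0.39 to 0.14).

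Calls over all genes numbered 4156, 2443 with quantile normalization, 1873 with no filter, 2559 with no intensity trend and 64 to 2863 with 1 library left out. Of the synthesis and processing genes, 14 were called under the common median, 15 under quantile normalization and 2 to 19 with 1 library left out. Basement membrane partners numbered 5 under both scalings and 1 to 7 with 1 library left out, receptors 0 to 2 and fibrillar matrix partners 0 to 4. The cause of these shifts was not tested. Binding over non-binding ratios of summed TPM ranged, with 1 library left out, from 1.80 to 2.24 (basement membrane), 1.12 to 1.52 (fibrillar) and 1.29 to 1.51 (other).

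With the replicate number as a block, 5 chains were higher, 23 synthesis and processing genes were called and the receptor count was 2 in place of 3. Outside this fit the numbers were not taken to pair the samples. Deviations of same-numbered libraries from their group means correlated at 0.035, -0.017 and 0.028 across genes. Those of differently numbered libraries correlated at -0.074 to 0.062. With 3 libraries per group these values cannot decide whether the libraries were paired. Depth is unknown, which means that a value of 0 in the table does not show absence.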

Other observations

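Within the non-binding group, replicate 2 had the lowest value of 17 of the 19 tested chains, against 43.4% of all tested genes, and of all 6 fibrillar chains. Within the binding group, replicate 3 was highest for 5 of the 6 tested fibrillar chains, the exception being COL27A1, against 22.5% of all tested genes, whereas replicate 1 was highest for COL4A1, COL4A2, COL18A1, COL12A1, COL13A1, COL8A1 and COL27A1, 7 in all, against 56.5% of all tested genes. These counts are descriptions of single libraries. The 5 genes in the table named as antisense to a collagen chain (COL, the chain and AS with a number) were listed at 0 in every library, as were 574 of 1256 genes whose name ends in AS and a number. Other annotated antisense genes share exonic bases with chains, and of these AC114488.2, opposite COL16A1, reached 0.807 TPM and AC097662.1, opposite COL4A3, 0.725 TPM. Opposite-strand protein-coding genes overlap 2 untested chains. COL9A3 shares 45 exonic bases with TCFL5 (up to 19.6 TPM) and COL19A1 shares 70 with LMBRD1 (up to 24.8 TPM). The part of reads from these genes in the chain values was not tested.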
